A study of Homo sapiens with 24 samples.

Results

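The genes described are 10 receptor tyrosine kinases of tumour cells: EGFR, ERBB2, ERBB3, MET, AXL, IGF1R, INSR, FGFR1, PDGFRB and EPHA2. They were taken by symbol from the gene column of the deposited tables, in which each was found under the same identifier for every line, and are 10 of 58174 genes listed. After removal of ribosomal RNA, total RNA was sequenced from 4 human cancer lines that had received a control siRNA (siC) or an siRNA pool directed at IGF2BP1 (siI1), an oncofetal RNA-binding protein. The lines come from a lung adenocarcinoma (A549), a carcinoma of the ovary (ES2), a melanoma (MV3) and a carcinoma of the pancreas (PANC1). Cells were harvested 72 h after transfection in A549, ES2 and MV3 and 96 h after transfection in PANC1, so that line and harvest time cannot be told apart for PANC1. Each line gave 3 siC and 3 siI1 libraries, 24 libraries in 8 groups. Each tumour type is represented by 1 established line and the knockdown by 1 pool of siRNAs. The 3 libraries of a group are described as biological replicates in the methods, and p-values measure the spread between them.

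Receptor tyrosine kinases are membrane proteins that bind a growth factor outside the cell, pair up and phosphorylate each other inside it, and so recruit adaptors that switch on the RAS and PI3 kinase pathways. EGFR, ERBB2 and ERBB3 form pairs with each other, and ERBB3 has little kinase activity of its own, while ERBB2 has no known soluble ligand. MET binds HGF, AXL binds GAS6, IGF1R and INSR bind the insulin-like growth factors and insulin, FGFR1 binds fibroblast growth factors, PDGFRB binds PDGF-BB and PDGF-DD, and EPHA2 binds ephrins on neighbouring cells. The readout here is the level of their mRNA, given in FPKM (reads per kilobase of gene length, scaled by the library's adjusted total), and not the amount or activity of the protein. Fold changes are siI1 against siC on the log2(FPKM + 0.5) scale, which understates the change of low genes, and are given with their standard error (SE).

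Library depth ran from 3105215 reads assigned to genes, in A549, to 20082702, in MV3. IGF2BP1 was lower in every siI1 library than in any siC library of its line, with 24.9% of the siC level remaining in PANC1 and 39.4% in A549 at the extremes. In PANC1 the 7SL and 7SK RNAs took 10.2 to 15.4% of reads in siC and 21.3 to 25.6% in siI1, against 3.98 to 11.3% over all libraries of the other lines. Rescaling each library to the same sum of values moved the PANC1 median over all genes tested from -0.04 to -0.68 on the log2 scale, and changes in that line are therefore relative to the scaling. Of the markers of the labelled tissues, none of 5 lung alveolar genes reached 0.5 FPKM in A549, none of 5 ovarian and Mullerian genes did so in ES2 and none of 6 melanocyte genes in MV3, where SOX10, TYR and S100B were at 0, while 1 of 5 pancreatic genes, PDX1, did so in PANC1. By count alone the lines were not set apart: in siC, 1 of 5 pancreatic genes did so in each of the other lines too. That gene was not PDX1 in A549 and ES2, where PDX1 was at 0 in siC. In siC, 1 of 6 melanocyte genes in A549, ES2 and PANC1 and 2 of 5 ovarian and Mullerian genes in A549 reached 0.5 FPKM. All 6 epithelial markers reached it in A549 and PANC1, and 3 of 6, all keratins, in ES2 and MV3. Their summed level was lower in siI1 than in siC in A549 (526 to 557 against 1144 to 1249 FPKM). It was higher in ES2 (194 to 222 against 151 to 167 FPKM) and PANC1 (2061 to 2214 against 1342 to 1765 FPKM), while the groups overlapped in MV3. The PANC1 sum joined opposite moves: KRT8 and KRT19 were called higher (limma adjusted p = 0.022 and 0.021), and CDH1 and EPCAM lower (0.00237 and 0.0248). All of these but CDH1 lost their call in 4 of 6 fits leaving out a library. The part of these markers in the receptor results was not tested. The endothelial marker CDH5 was at 9.59 FPKM in siC and 15.3 FPKM in siI1 of ES2, while all 3 endothelial markers stayed under 0.5 FPKM in the other lines.

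In the control libraries AXL, MET, EPHA2 and EGFR made up most of the receptor mRNA in every line. A549 was led by MET at 78.2 ± 4.13 FPKM, followed by AXL at 66.6 ± 1.27, IGF1R at 42.7 ± 2.94, EPHA2 at 39.0 ± 1.09 and EGFR at 38.9 ± 1.29 FPKM (SD, n = 3). Neighbours in this order did not overlap between libraries except EPHA2 and EGFR. IGF1R, which transmits growth and survival signals, held rank 3 in A549 and rank 5 or 6 in the other lines.

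ES2 and MV3 were both led by AXL, at 276 ± 11.1 and 278 ± 6.81 FPKM. EPHA2 followed in both, at 61.8 ± 3.58 FPKM in ES2, where its libraries overlapped those of MET at 58.3 ± 0.472, and at 82.8 ± 0.844 FPKM in MV3, where MET lay apart at 41.9 ± 0.226 (SD, n = 3 each). AXL held 63.4 ± 0.351% of the summed FPKM of the 10 receptors in siC of ES2 and 62.4 ± 0.469% in MV3, against 23.0 ± 0.633% in A549 and 27.8 ± 0.864% in PANC1. Its siC level was above that of 99.5% of protein-coding genes in ES2 and 99.7% in MV3. PANC1 was led by EPHA2 at 86.0 ± 2.41 FPKM, then AXL at 67.1 ± 1.34, MET at 41.9 ± 2.41 and EGFR at 28.9 ± 2.01 FPKM, with no overlap between neighbours. The tables of the 4 lines were normalised separately, so these levels were not tested between lines. Rescaling to the same sum exchanged MV3 and ES2 at the top of the order for AXL, which were not apart in FPKM either, and PANC1 and MV3 at the top of that for EPHA2.

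**Figure D1:**
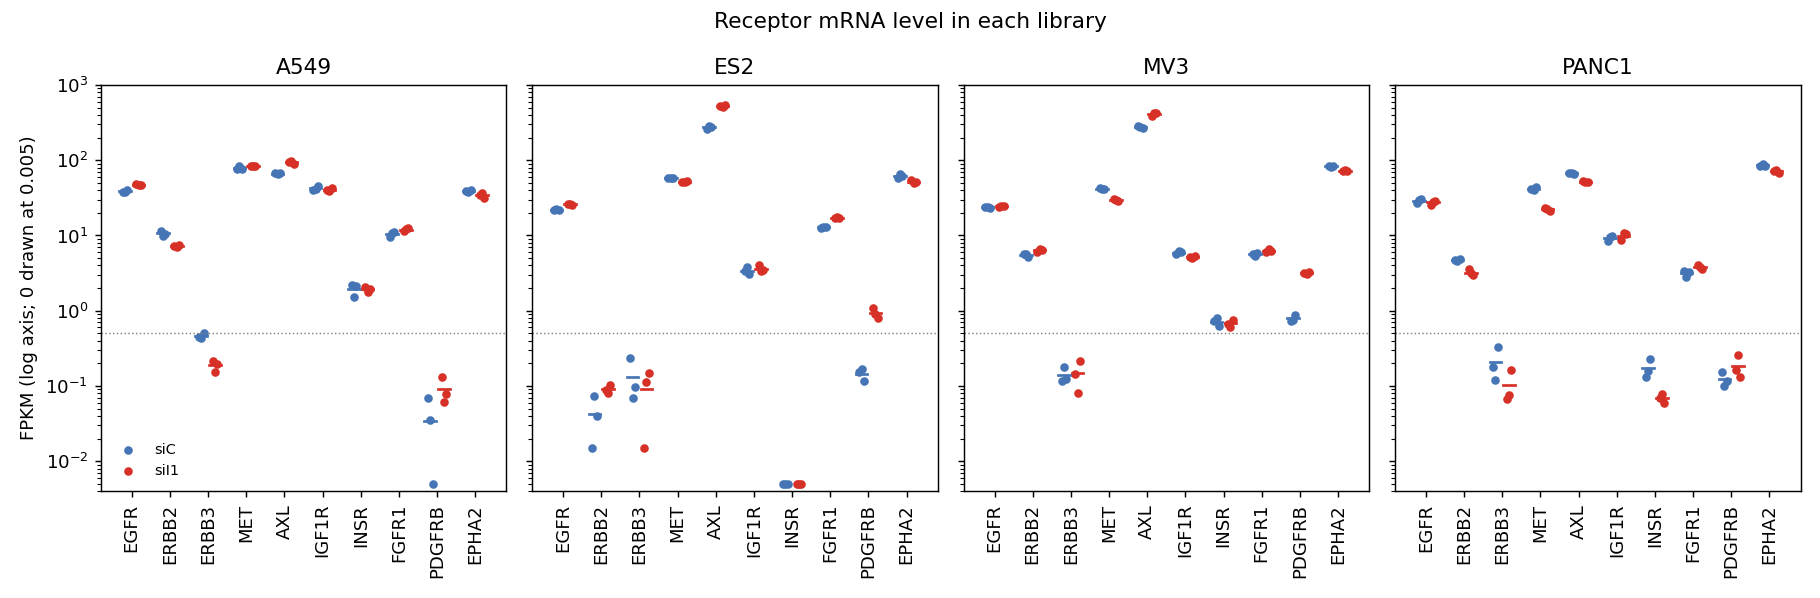
FPKM (log axis) of the 10 receptors in each siC (blue) and siI1 (red) library of the 4 lines, with short bars at the group means and the dotted line at 0.5 FPKM; values of 0 are drawn at 0.005. AXL stands at 276 FPKM in siC of ES2 and 278 in MV3, ERBB3 lies under the dotted line in all lines, and INSR is at 0 in ES2.

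Several receptors were near the limit of detection in some lines. ERBB3 averaged under 0.5 FPKM over the 6 libraries of every line, the minimum for a test, with 0.463 FPKM in siC of A549 as its highest group mean. ERBB2, the kinase amplified in part of breast cancers, was at 10.7 ± 0.838 FPKM in siC of A549 but at 0.0431 ± 0.0295 in ES2, where its 6 libraries held 1 to 9 reads each. INSR, the insulin receptor, had 0 reads in all 6 ES2 libraries, which allows up to 0.034 to 0.0447 FPKM per library at a limit of 3 reads. The neighbouring genes on chromosome 19, ZNF557 and ARHGEF18, had 702 and 249 reads over the same ES2 libraries. INSR had 480 reads in A549, 776 in MV3 and 58 in PANC1 over 6 libraries each. PDGFRB, a receptor of mesenchymal cells, was at 0.791 ± 0.0833 FPKM in siC of MV3 and at most 0.147 FPKM in the siC groups of the other lines. These limits cover counting error only.

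Of the 40 combinations of receptor and line, 31 were tested, 10 were lower, 9 were higher and 12 did not pass a limma adjusted p of 0.05; the other 9 fell under the minimum. In A549, 8 receptors were tested, of which 1, ERBB2, was lower and 2, EGFR and AXL, were higher, where 7.83% of all 18411 genes tested were lower and 5.93% higher. In ES2, 2 of 7, MET and EPHA2, were lower and 4, EGFR, AXL, FGFR1 and PDGFRB, were higher, against 13.0% and 10.5% of 16920 genes. In MV3, 3 of 9, MET, IGF1R and EPHA2, were lower and 3, ERBB2, AXL and PDGFRB, were higher, against 19.5% and 16.3% of 16380 genes. In PANC1, 4 of 7, ERBB2, MET, AXL and EPHA2, were lower and none was higher, against 13.4% and 11.3% of 15846 genes. The count of 0 higher in PANC1 became 1, FGFR1, with limma voom on the recovered reads and in a joint fit of all 24 libraries. For A549, ES2, MV3 and PANC1, the tested receptors had median log2 fold changes of 0.06, 0.24, 0.04 and -0.27, beside -0.01, -0.02, 0.01 and -0.04 over all genes tested. The ES2 count higher and the ES2 median include PDGFRB, at 0.147 FPKM in siC and 0.932 FPKM in siI1. PDGFRB reached the minimum for testing in ES2 only through siI1, so it lends no weight to that count or median. In these fits of each line alone, no receptor moved the same way past the threshold in all 4 lines, and 2, ERBB2 and AXL, passed it in both directions. In the joint fit of all 24 libraries, EPHA2 was lower past the threshold in A549 too (limma adjusted p = 0.019), and so in all 4 lines. MET was higher past it in A549 in that fit (0.0449), and so also passed in both directions.

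**Figure D2:**
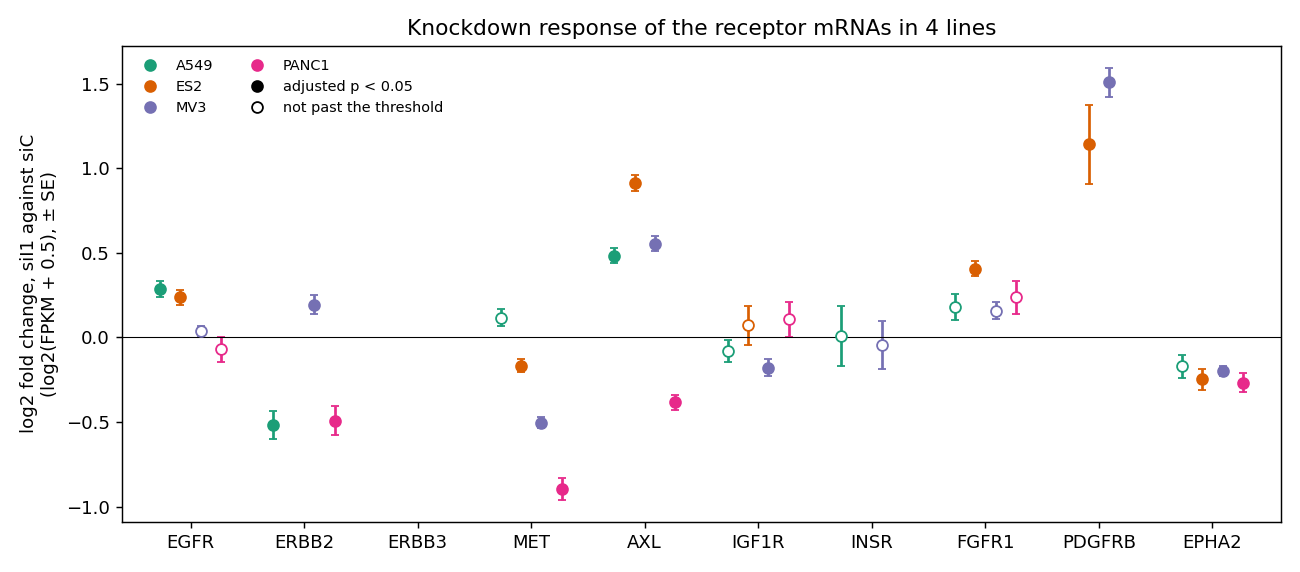
Log2 fold change, siI1 against siC (log2(FPKM + 0.5) scale), of each receptor in A549, ES2, MV3 and PANC1, with bars of 1 SE; filled points passed a limma adjusted p of 0.05, open points did not, and absent points were not tested. AXL is at 0.91 in ES2 and -0.38 in PANC1, MET lies between 0.12 in A549 and -0.90 in PANC1, and PDGFRB is at 1.51 in MV3.

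The sequences just before the annotated starts of AXL, MET and PDGFRB are shown because these receptors had the largest changes, and were chosen after their values were seen. They are the 250 bases before the start in RefSeq's annotation of GRCh38.p14, in which 8 of the 10 receptors were matched by symbol, read 5′ to 3′ on the strand of the gene. AXL lies at chr19:41218973-41219222 on the plus strand, MET at chr7:116671946-116672195 on the plus strand and PDGFRB at chr5:150155846-150156095 on the minus strand. Capitals mark GC boxes, searched as GGGCGG on both strands.
AXL: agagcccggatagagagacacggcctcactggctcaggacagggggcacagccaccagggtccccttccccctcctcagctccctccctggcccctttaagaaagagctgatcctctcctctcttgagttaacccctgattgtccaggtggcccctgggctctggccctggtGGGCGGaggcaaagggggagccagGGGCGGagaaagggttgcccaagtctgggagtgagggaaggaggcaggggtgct
MET: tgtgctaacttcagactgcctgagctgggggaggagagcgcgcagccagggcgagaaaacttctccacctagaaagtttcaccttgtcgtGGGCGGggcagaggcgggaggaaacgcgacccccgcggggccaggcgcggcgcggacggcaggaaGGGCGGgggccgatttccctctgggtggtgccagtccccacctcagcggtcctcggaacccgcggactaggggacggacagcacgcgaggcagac
PDGFRB: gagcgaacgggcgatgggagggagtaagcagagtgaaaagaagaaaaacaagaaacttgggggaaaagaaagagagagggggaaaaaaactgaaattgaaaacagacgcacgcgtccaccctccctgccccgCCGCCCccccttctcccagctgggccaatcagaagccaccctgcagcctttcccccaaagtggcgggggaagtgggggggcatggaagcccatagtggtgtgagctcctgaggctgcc
AXL and MET held 2 GC boxes each and PDGFRB held 1, a motif present in 42.6% of 35116 promoters of this length. None of the 3 held an AP-1 site (TGANTCA, in 6.57% of promoters), a TEAD site (GGAATG, in 11.9%), an E-box (CACGTG, in 6.34%) or a TATA box (TATAAA, in 10.7%), each searched on both strands. The GC content of the 3 windows was 64.4%, 68.4% and 58.4%, beside a median of 58.0% over all promoters.

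AXL, a receptor tied to invasion and to resistance against EGFR inhibitors, rose in 3 lines and fell in the fourth. It lies on chromosome 19 (hg38, 41219223 to 41261766, plus strand). In A549 its siC libraries held 67.7, 65.2 and 66.9 FPKM and its siI1 libraries 93.3, 96.6 and 90.2 FPKM. In ES2 they held 263, 284 and 280 FPKM in siC and 520, 504 and 535 FPKM in siI1. In MV3 they held 284, 279 and 271 FPKM in siC and 388, 419 and 419 FPKM in siI1. Every siI1 library of these lines lay above every siC library. In PANC1 the order was the opposite, with 68.2, 67.5 and 65.6 FPKM in siC and 52.6, 50.6 and 50.7 FPKM in siI1, again without overlap. These were log2 fold changes of 0.91 ± 0.05 in ES2 (limma adjusted p = 0.000189), 0.56 ± 0.04 in MV3 (0.000373), 0.48 ± 0.04 in A549 (0.00202) and -0.38 ± 0.05 in PANC1 (0.00292). AXL kept its direction and its side of the threshold under each alternative run in each line; rescaled to the same sum, it was at -1.13 in PANC1, below that scaling's median of -0.68.

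The 4 responses of AXL differed by the F test of the joint fit (limma adjusted p = 7.65e-11), as did those of 45.0% of 12816 genes tested in all lines. Of its 6 pairs of lines, 5 differed, the exception being MV3 and A549, whose log2 fold changes were 0.07 ± 0.06 apart (adjusted p = 0.447). Among the 3 lines harvested at 72 h, 2 of 3 pairs differed, ES2 having the larger rise by 0.43 ± 0.06 over A549 and by 0.36 ± 0.06 over MV3. Over all 12816 genes, 21.7% differed between ES2 and A549, 18.7% between MV3 and A549 and 9.78% between MV3 and ES2. For the pairs with PANC1 the share was 26.5% (A549), 32.7% (ES2) and 22.1% (MV3). With these changes AXL reached 77.4 ± 0.47% of the summed receptor FPKM in siI1 of ES2 and 73.4 ± 0.691% in MV3, and stood at 29.0 ± 0.617% in A549 and 27.1 ± 0.893% in PANC1.

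MET, the receptor of hepatocyte growth factor, fell in ES2, MV3 and PANC1. It lies on chromosome 7 (hg38, 116672196 to 116798377, plus strand). Its siC and siI1 libraries in PANC1 held 41.3, 39.8 and 44.5 FPKM against 23.0, 22.6 and 21.1 FPKM. In MV3 they held 42.2, 41.8 and 41.7 FPKM against 30.2, 29.6 and 28.5 FPKM. In ES2 they held 57.9, 58.2 and 58.8 FPKM against 51.1, 51.0 and 53.7 FPKM, and no siI1 library of the 3 lines reached the lowest siC library. On the log2 scale MET changed by -0.90 ± 0.06 in PANC1 (limma adjusted p = 0.000869), -0.50 ± 0.03 in MV3 (0.000185) and -0.17 ± 0.04 in ES2 (0.0253). In A549 the level was 76.0, 82.9 and 75.6 FPKM in siC and 84.3, 85.0 and 84.8 FPKM in siI1, a log2 fold change of 0.12 ± 0.05 that did not pass the threshold (0.195). In the joint fit this A549 rise did pass (0.0449). The fall in ES2 lost its call when any library but siI1 replicate 3 was left out (adjusted p 0.0576 to 0.0755), whereas those in MV3 and PANC1 kept theirs under each alternative. All 6 pairs of lines differed for MET (F test, limma adjusted p = 4.04e-09), the widest being PANC1 and A549, at -1.01 ± 0.06. By pair, 9.78% to 32.7% of all genes tested differed.

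EGFR, the receptor of epidermal growth factor on chromosome 7 (hg38, 55019017 to 55211628, plus strand), rose in A549 and ES2. In A549 its siC libraries held 38.0, 38.2 and 40.4 FPKM and its siI1 libraries 48.6, 47.2 and 46.7 FPKM. In ES2 they held 21.8, 22.8 and 21.6 FPKM against 26.6, 26.4 and 25.3 FPKM. In both lines the groups lay apart. The log2 fold change was 0.29 ± 0.05 in A549 (limma adjusted p = 0.0123) and 0.24 ± 0.04 in ES2 (0.0124). In MV3 and PANC1 the groups overlapped, with log2 fold changes of 0.04 ± 0.03 (0.423) and -0.07 ± 0.07 (0.522). Rescaled to the same sum, EGFR was past the threshold in PANC1 at -0.81, beside that scaling's median of -0.68, and its rise in A549 no longer passed (0.25, adjusted p = 0.0626). The responses of EGFR differed between lines (F test, limma adjusted p = 0.000742), in 3 of 6 pairs and, without PANC1, in 1 of 3, MV3 against A549 (-0.25 ± 0.07, adjusted p = 0.0135). Of all genes tested, 9.78% to 32.7% differed by pair, and 18.7% between MV3 and A549.

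ERBB2, the preferred partner of EGFR, moved apart from it in A549 and PANC1. It lies on chromosome 17 (hg38, 39687914 to 39730426, plus strand). Its siC libraries in A549 held 11.6, 9.91 and 10.5 FPKM and its siI1 libraries 7.23, 7.09 and 7.55 FPKM. In PANC1 they held 4.75, 4.61 and 4.81 FPKM against 3.54, 3.14 and 2.98 FPKM, and neither line's groups overlapped. Its log2 fold change was -0.52 ± 0.08 in A549 (limma adjusted p = 0.0109) and -0.49 ± 0.09 in PANC1 (0.00963). In MV3 ERBB2 went from 5.63, 5.72 and 5.19 FPKM in siC to 6.07, 6.61 and 6.45 FPKM in siI1, a log2 fold change of 0.19 ± 0.06 (0.0375) that did not pass when any library but siI1 replicate 1 was left out (0.0599 to 0.114). This rise also did not pass rescaled to the same sum (0.0557) or by median-of-ratios scaling (0.064). ERBB2 was not tested in ES2, and so its response was not compared between all 4 lines. ERBB3, on chromosome 12 (hg38, 56076799 to 56103505, plus strand), held 50 reads over the 3 siC libraries of A549 and 18 over the siI1 libraries, and its levels of 0.453, 0.435 and 0.501 FPKM against 0.215, 0.152 and 0.196 FPKM did not overlap, but no test was made under the minimum.

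A ratio of a pair of receptors within a library does not depend on how the library is scaled. The EGFR to ERBB2 ratio of FPKM lay between 3.29 and 3.86 in siC of A549 and between 6.19 and 6.73 in siI1, and between 5.63 and 6.39 in siC of PANC1 and between 7.28 and 9.57 in siI1. In MV3 it went the other way, from 4.19 to 4.52 in siC to 3.69 to 3.91 in siI1. The AXL to EGFR ratio was higher in siI1 in A549, ES2 and MV3 and lower in PANC1, with geometric means of 12.5 in siC and 19.9 in siI1 of ES2 and of 2.32 and 1.87 in PANC1. The MET to EGFR ratio was lower in siI1 in all 4 lines, by 0.17 on the log2 scale for A549, 0.41 for ES2, 0.55 for MV3 and 0.84 for PANC1. None of these groups overlapped within its line, and each gave p = 0.1 in the exact two-sided permutation test, the smallest that 3 against 3 libraries allow, which cannot pass 0.05. Over the 19 ratios tested, 13 gave this p, and the smallest Benjamini-Hochberg adjusted p was 0.146. The INSR to IGF1R ratio overlapped between groups in A549 (exact permutation p = 0.8) and MV3 (p = 0.5), and rested on as few as 4 reads in PANC1.

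**Figure D3:**
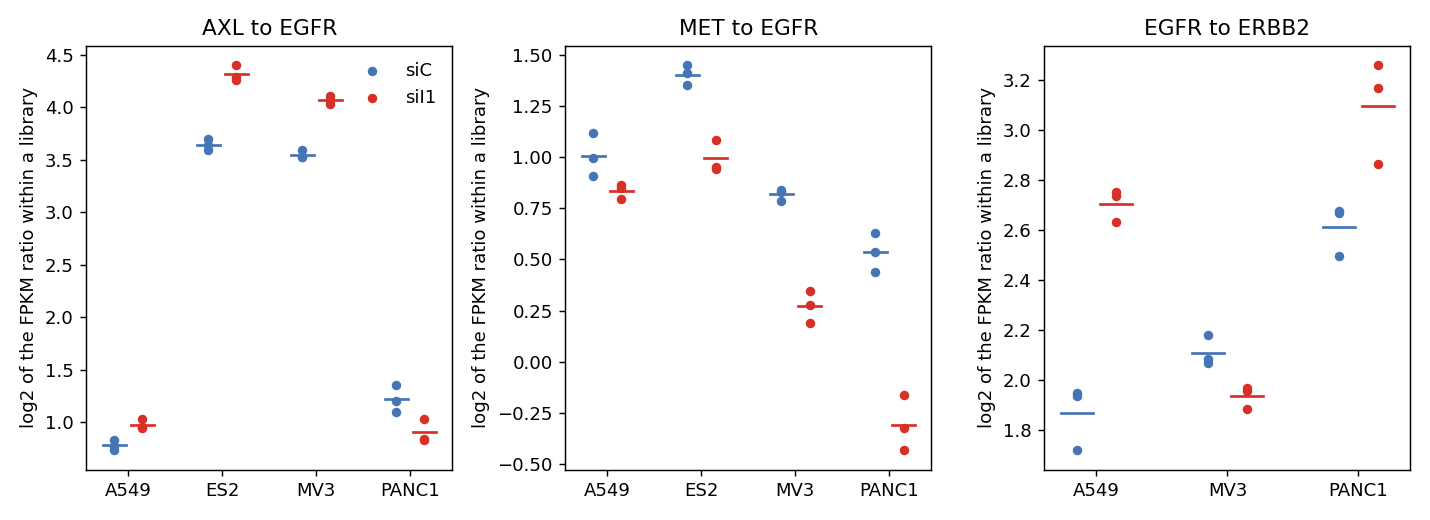
Log2 of the FPKM ratio of AXL to EGFR, MET to EGFR and EGFR to ERBB2 in each siC (blue) and siI1 (red) library, with bars at the group means; ES2 is left out of the last because it had 1 to 9 ERBB2 reads per library. The groups do not overlap in any line shown, and the MET to EGFR ratio is lower in siI1 in all 4.

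EPHA2, the ephrin receptor on chromosome 1 (hg38, 16124337 to 16156069, minus strand), fell in ES2, MV3 and PANC1. In MV3 its libraries held 83.8, 82.1 and 82.6 FPKM in siC and 70.9, 74.2 and 71.5 FPKM in siI1. In PANC1 they held 84.9, 88.7 and 84.3 FPKM against 71.2, 74.8 and 68.1 FPKM. The groups lay apart in all 4 lines, A549 included, with siI1 lower. EPHA2 had log2 fold changes of -0.25 ± 0.06 in ES2 (limma adjusted p = 0.0307), -0.20 ± 0.03 in MV3 (0.00283) and -0.27 ± 0.06 in PANC1 (0.0166), beside -0.17 ± 0.07 in A549, which did not pass (0.161). The A549 fall did pass in the joint fit (0.019), in which EPHA2 was thus lower past the threshold in all 4 lines. The call in ES2 was lost without siC replicate 2 or 3 or siI1 replicate 2 or 3 (0.0814 to 0.101) and that in PANC1 without siC replicate 1 or siI1 replicate 1 or 3 (0.0505 to 0.0601). A difference between the lines was not detected for EPHA2 (F test, limma adjusted p = 0.643), and the widest pair, PANC1 and A549, was -0.10 ± 0.08 apart.

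FGFR1 rose in ES2, from 12.6, 13.1 and 13.0 FPKM in siC to 17.2, 17.3 and 17.3 FPKM in siI1. The log2 fold change was 0.41 ± 0.04 (limma adjusted p = 0.00169). In A549, MV3 and PANC1 the siI1 libraries also lay above all siC libraries, with log2 fold changes of 0.18 ± 0.08 (0.203), 0.16 ± 0.05 (0.0533) and 0.24 ± 0.10 (0.136), none of which passed. MV3 and PANC1 did pass with limma voom on the recovered reads (0.00778 and 0.0447), while rescaling to the same sum turned the PANC1 value to -0.43, beside that scaling's median of -0.68. In the joint fit of all 24 libraries A549 and PANC1 passed (limma adjusted p = 0.0375 and 0.00646). With a filter of 1 FPKM, MV3 passed (limma adjusted p = 0.0435). The F test between lines did not pass for FGFR1 (0.102).

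PDGFRB had the largest log2 fold change among the tested receptors, in MV3, although its change in ES2 was the larger with a pseudocount of 0.1 (2.06 against 1.88) and with limma voom. It lies on chromosome 5 (hg38, 150113839 to 150155872, minus strand). In MV3 it went from 0.735, 0.751 and 0.887 FPKM in siC to 3.18, 3.10 and 3.23 FPKM in siI1, 4.01 times the mean level, with 79 reads in the library with fewest. The log2 fold change was 1.51 ± 0.09 (limma adjusted p = 0.000166). In ES2 it went from 0.153, 0.171 and 0.117 FPKM to 1.09, 0.913 and 0.796 FPKM, on 21 reads over the siC libraries and 154 over the siI1 libraries. The log2 fold change there was 1.14 ± 0.23 (0.0164), but PDGFRB reached the minimum for testing in ES2 only through its siI1 libraries, so its call had to favour a rise and lends no weight to the count of receptors that rose. That call was lost without siI1 replicate 1 (0.0513). In A549 and PANC1 PDGFRB had at most 3 and 11 reads per library and was not tested.

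IGF1R and INSR, the receptors of the insulin-like growth factor family, passed the threshold in 1 line, MV3, for IGF1R and in none for INSR. IGF1R lies on chromosome 15 (hg38, 98648539 to 98964530, plus strand) and INSR on chromosome 19 (hg38, 7112255 to 7294414, minus strand). IGF1R in A549 held 40.5, 41.7 and 46.1 FPKM in siC and 39.8, 39.0 and 42.2 FPKM in siI1, which overlap. Its log2 fold change was -0.18 ± 0.05 in MV3 (limma adjusted p = 0.0336), a fall that passed in 1 of the 6 fits leaving out a library, the one without siC replicate 1, and not in the joint fit (0.161). In A549, ES2 and PANC1 it was -0.08 ± 0.06, 0.07 ± 0.12 and 0.11 ± 0.10, none past the threshold; rescaled to the same sum, the PANC1 value turned to -0.61 and passed (limma adjusted p = 0.0233), beside that scaling's median of -0.68. INSR was at 1.94 FPKM in both groups of A549, and at 0.718 FPKM in siC and 0.682 FPKM in siI1 of MV3, with log2 fold changes of 0.01 ± 0.18 and -0.04 ± 0.14. In PANC1 INSR held 44 reads over the siC libraries and 14 over the siI1 libraries, under the minimum for a test. The ligands of these receptors were low, with IGF1 at 0 in all libraries of the 4 lines and IGF2 at no more than 0.219 FPKM in any group.

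Among the other 48 receptor tyrosine kinases of the family, calls were made in both directions in A549, ES2 and MV3. Of these, 19 were tested in no line. In A549, 4 of 15 tested were lower and 1 was higher, in ES2 2 of 16 and 5, in MV3 2 of 12 and 6, and in PANC1 3 of 18 and 0. Over all genes, 7.83% were lower and 5.93% higher in A549, 13.0% and 10.5% in ES2, 19.5% and 16.3% in MV3 and 13.4% and 11.3% in PANC1, so that the shares lower in ES2 (12.5%), MV3 (16.7%) and PANC1 (16.7%) and the share higher in A549 (6.67%) lay near those of all genes. The 0 higher in PANC1 became 1 in the joint fit. Their median log2 fold changes were -0.08, 0.13, 0.23 and -0.12 in the same order. None of the 48 passed the threshold in both directions.

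LMTK2 is a transmembrane kinase of endosomes. In the fits of each line alone, it was the only one of the 58 genes listed for the family lower past the threshold in all 4 lines. In the joint fit LMTK2 did not pass in MV3, whereas EPHA2 was lower past the threshold in all 4 lines. With a replicate block LMTK2 passed in no line. Its falls were 0.48 ± 0.07 (A549), 0.39 ± 0.07 (ES2), 0.17 ± 0.05 (MV3) and 0.41 ± 0.11 (PANC1) on the log2 scale. The call in MV3 was lost in 6 of 6 fits leaving out a library (limma adjusted p 0.0611 to 0.111) and rescaled to the same sum (0.0864), and that in PANC1 in 5 of 6 (0.0818 to 0.108), all but the one without siC replicate 1. ROR1, a receptor of Wnt ligands, rose in ES2 from 0.646 ± 0.115 to 4.67 ± 0.617 FPKM (2.17 ± 0.14) and in A549 from 5.39 ± 0.261 to 8.02 ± 0.702 FPKM (0.53 ± 0.09), a call lost without siC replicate 1 or 3 or siI1 replicate 2 or 3 (limma adjusted p 0.0568 to 0.065). KIT, the receptor of stem cell factor, rose in ES2 from 2.12 ± 0.217 to 7.28 ± 0.744 FPKM (1.57 ± 0.11). PDGFRA, the sister receptor of PDGFRB, rose with it in MV3 from 1.13 ± 0.081 to 2.58 ± 0.147 FPKM (0.92 ± 0.09) and in ES2 from 2.81 ± 0.117 to 5.45 ± 0.466 FPKM (0.84 ± 0.09). EPHA4, another ephrin receptor, rose in MV3 (0.55 ± 0.09). FGFR4 fell in A549 from 10.8 ± 0.72 to 5.78 ± 0.648 FPKM (-0.85 ± 0.10). In PANC1, RET, the receptor of the GDNF family, and MST1R, the relative of MET that binds macrophage-stimulating protein, fell by 0.78 ± 0.20 and 0.44 ± 0.10 on the log2 scale. Each of these 2 calls was lost in 5 of 6 fits leaving out a library, RET passing only without siC replicate 1 and MST1R only without siC replicate 2 (limma adjusted p otherwise 0.057 to 0.0882).

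The genes that act with the receptors were described in 4 lists by role, 76 genes in all. In A549, 10 of 62 tested were lower and 8 higher, in ES2 16 of 59 and 9, in MV3 22 of 60 and 12, and in PANC1 13 of 55 and 8. These are 16.1%, 27.1%, 36.7% and 23.6% lower, beside 7.83%, 13.0%, 19.5% and 13.4% of all genes tested, and 12.9%, 15.3%, 20% and 14.5% higher, beside 5.93%, 10.5%, 16.3% and 11.3%. Their median log2 fold changes were -0.01, -0.03, 0.00 and 0.01. In PANC1 the split turned to 43 lower and 0 higher when libraries were rescaled to the same sum, where 8870 of all 16238 genes tested were lower and 96 higher.

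Among 28 ligands, 3 of 16 tested were lower in A549, 4 of 14 in ES2, 8 of 15 in MV3 and 1 of 12 in PANC1, with 4, 4, 2 and 1 higher. The shares lower were 18.8%, 28.6%, 53.3% and 8.33%, beside 7.83%, 13.0%, 19.5% and 13.4% of all genes, and the shares higher 25%, 28.6%, 13.3% and 8.33%, beside 5.93%, 10.5%, 16.3% and 11.3%. The EGFR ligands EREG and AREG rose in A549 and fell in ES2 and MV3, whereas HBEGF (0.22), BTC (0.42) and TGFA (-0.14) did not pass in A549, and EPGN and EGF were not tested there. EREG (epiregulin) rose in A549 from 29.8 ± 2.38 to 59.7 ± 0.515 FPKM (0.99 ± 0.07) and fell in ES2 (-0.77 ± 0.10) and MV3 (-0.45 ± 0.04). AREG (amphiregulin) rose in A549 from 21.7 ± 2.17 to 36.7 ± 1.56 FPKM (0.75 ± 0.08), and fell in ES2 (-1.75 ± 0.27) and in MV3 (-0.66 ± 0.20), on as few as 1 and 10 reads in a library. In siI1 of ES2 it was near the floor, and it reached the minimum for testing there through its siC libraries. That call had to favour a fall and lends no weight to the count of ligands that fell. The MV3 call was lost without any library but siI1 replicate 1 (limma adjusted p 0.0793 to 0.113). HBEGF fell in ES2 from 28.5 ± 1.11 to 10.2 ± 1.28 FPKM (-1.44 ± 0.09) and in MV3 (-0.59 ± 0.07), and EPGN fell in MV3 (-0.85 ± 0.08). FGF5, a fibroblast growth factor, fell in ES2 from 17.8 ± 1.73 to 5.95 ± 0.325 FPKM (-1.50 ± 0.09) and in MV3 (-0.37 ± 0.04). NRG1, a ligand of ERBB3, fell in A549 (-0.44 ± 0.10), MV3 (-0.41 ± 0.09) and PANC1 (-0.51 ± 0.12), calls that passed in 1, 4 and 1 of 6 fits leaving out a library: in A549 without siC replicate 1, in PANC1 without siI1 replicate 3 and in MV3 without any library but siI1 replicate 1 or 2. PDGFB, which encodes a ligand of PDGFRB, fell in A549 from 4.13 ± 0.417 to 1.36 ± 0.591 FPKM (-1.36 ± 0.26; lost without any siC library or siI1 replicate 1, limma adjusted p 0.0648 to 0.0885) and rose in ES2 from 3.08 ± 0.244 to 7.34 ± 0.233 FPKM (1.13 ± 0.08). EFNA1, an ephrin that binds EPHA2, fell in A549 (-0.47 ± 0.11), where leaving out any library ended the call (limma adjusted p 0.0541 to 0.124), and rose in PANC1 (0.73 ± 0.14). That rise did not pass without siI1 replicate 2 (0.053). It shrank to 0.05 when libraries were rescaled to the same sum, beside that scaling's median of -0.68. GAS6, the ligand of AXL, and PROS1, another listed ligand, were named after their values were seen. GAS6 rose in ES2 from 6.23 ± 0.264 to 11.6 ± 0.421 FPKM (0.84 ± 0.06), and PROS1 rose in ES2 (0.78 ± 0.10) and MV3 (0.50 ± 0.07). HGF, the ligand of MET, was at no more than 0.182 FPKM in any group.

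Adaptors and first effectors carry the signal inward, and 7 of 18 tested were lower in PANC1, 5 of 19 in ES2, 4 of 19 in MV3 and 2 of 19 in A549, with 2, 1, 4 and 1 higher. The shares lower of 21.1% in MV3 and 10.5% in A549 lay near the 19.5% and 7.83% of all genes, and those in PANC1 and ES2 were 38.9% and 26.3%, beside 13.4% and 13.0%. The shares higher were 11.1%, 5.26%, 21.1% and 5.26%, beside 11.3%, 10.5%, 16.3% and 5.93%. CRKL, an adaptor made of SRC homology domains, fell in all 4 lines, by 0.46 ± 0.06 (A549), 0.43 ± 0.04 (MV3), 0.34 ± 0.06 (ES2) and 0.31 ± 0.06 (PANC1) on the log2 scale. Rescaled to the same sum it kept this direction but did not pass in ES2 (limma adjusted p = 0.0645), and the PANC1 call was lost without siC replicate 1 or siI1 replicate 3 (0.0501 and 0.0669). SRC, a kinase that many receptors activate, fell in A549 (-0.43 ± 0.05) and ES2 (-0.50 ± 0.08), and GAB2, a docking protein, in ES2 (-0.69 ± 0.13) and MV3 (-0.56 ± 0.09). In PANC1 PIK3CA, a catalytic subunit of PI3 kinase, and PTPN11, the phosphatase SHP2, fell by 0.54 ± 0.09 and 0.51 ± 0.06. PTPN11 also fell in MV3 (-0.35 ± 0.03), and PIK3R1, a regulatory subunit of PI3 kinase, rose there (0.56 ± 0.08).

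Receptor brakes end the signal by ubiquitination, inhibition or dephosphorylation, and 5 of 14 tested were lower in MV3, 4 of 15 in A549, 3 of 13 in PANC1 and 2 of 14 in ES2, with 5, 2, 1 and 1 higher. The share lower was 35.7% in MV3, 26.7% in A549, 23.1% in PANC1 and 14.3% in ES2, beside 19.5%, 7.83%, 13.4% and 13.0% of all genes, and the share higher 35.7%, 13.3%, 7.69% and 7.14%, beside 16.3%, 5.93%, 11.3% and 10.5%. CBL, a ubiquitin ligase that sends activated receptors to degradation, fell in all 4 lines, in A549 from 4.09 ± 0.28 to 2.14 ± 0.164 FPKM (-0.80 ± 0.12) and in PANC1 from 15.2 ± 0.777 to 8.56 ± 1.15 FPKM (-0.80 ± 0.11), with -0.66 ± 0.09 in ES2 and -0.36 ± 0.09 in MV3; it kept direction and call under both other scalings, but the MV3 call was lost without siC replicate 2 or 3 or siI1 replicate 1 or 2 (limma adjusted p 0.0636 to 0.0852). ERRFI1, an inhibitor of EGFR, fell in A549 (-0.63 ± 0.11, lost without replicate 1 or 2 of either group, limma adjusted p 0.0619 to 0.0655), ES2 (-0.68 ± 0.05) and MV3 (-0.72 ± 0.05). It rose in PANC1 from 70.6 ± 2.08 to 104 ± 2.69 FPKM (0.56 ± 0.05), where rescaling to the same sum turned it to -0.19, beside that scaling's median of -0.68. LRIG1, which lowers ERBB receptor levels, rose in ES2 (0.91 ± 0.06) and MV3 (0.59 ± 0.06), and GRB10, an inhibitor of insulin receptor signalling, fell in A549 (-0.73 ± 0.08) and MV3 (-0.55 ± 0.10).

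Of the 12 genes for maturation, shedding and trafficking, all tested in each line, 5 were lower in ES2 and in MV3, 2 in PANC1 and 1 in A549, with 3 and 1, 4 and 1 higher. The 8.33% lower and 8.33% higher in A549 lay near the 7.83% and 5.93% of all genes and the 16.7% lower in PANC1 near 13.4%, while 41.7% were lower in ES2 and in MV3, beside 13.0% and 19.5%. The shares higher were 25.0% in ES2, 8.33% in MV3 and 33.3% in PANC1, beside 10.5%, 16.3% and 11.3%. FURIN, the protease that cleaves the precursors of MET, IGF1R and INSR, fell in all 4 lines, by 0.81 ± 0.06 (A549), 0.60 ± 0.06 (PANC1), 0.49 ± 0.05 (MV3) and 0.28 ± 0.06 (ES2), and with libraries rescaled to the same sum it kept this direction but not its call in ES2 (limma adjusted p = 0.0999), a call also lost without siC replicate 2 or 3 or siI1 replicate 1 or 2 (0.0594 to 0.0622). ADAM17, which sheds EGFR ligands and AXL from the cell surface, rose in all 4, in A549 from 25.1 ± 0.807 to 43.6 ± 1.19 FPKM (0.79 ± 0.05) and in ES2 from 9.94 ± 0.54 to 18.6 ± 0.849 FPKM (0.87 ± 0.06), with 0.25 ± 0.04 in MV3 and 0.58 ± 0.09 in PANC1. Rescaling to the same sum turned the PANC1 value to -0.16, beside that scaling's median of -0.68. ADAM10, the related sheddase, rose in ES2 (0.31 ± 0.05) and fell in PANC1 (-0.59 ± 0.07). The chaperone genes HSP90AB1 and CDC37, which fold kinases, fell in ES2 (-0.54 ± 0.06 and -0.55 ± 0.06) and MV3 (-0.46 ± 0.05 and -0.32 ± 0.05).

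**Figure D4:**
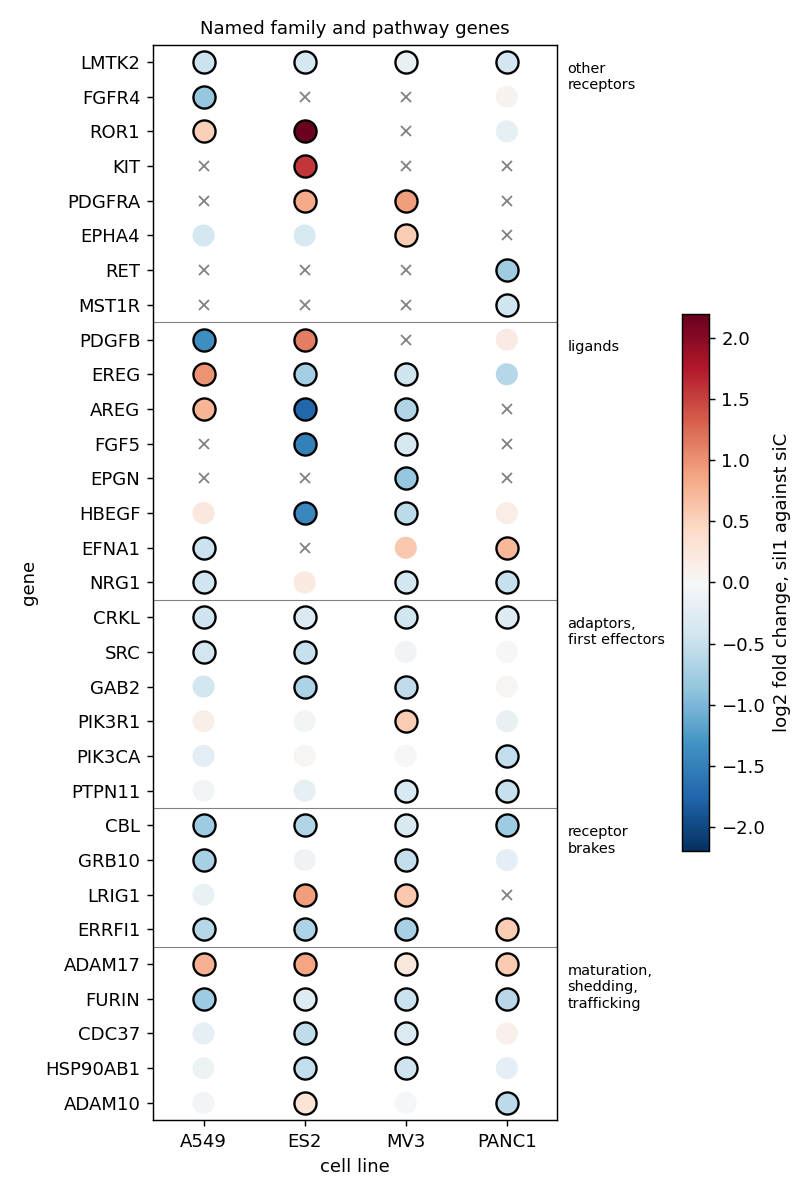
Log2 fold change, siI1 against siC (colour scale), of the named receptors, ligands, adaptors, brakes and processing genes in each line; black rings mark a limma adjusted p under 0.05 and crosses genes not tested. LMTK2, CRKL, CBL and FURIN are lower in all 4 lines and ADAM17 is higher. Rescaled to the same sum, ADAM17 turns to -0.16 in PANC1, beside that scaling's median of -0.68 over all genes tested.

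The receptors differ widely in the annotated length of the 3' untranslated region, where IGF2BP1 is known to bind many of its target mRNAs. The longest in GENCODE release 44 was 7091 bases in IGF1R, 6014 in EGFR and 4804 in INSR, against 621 in ERBB2 and 881 in EPHA2. Over the 10 receptors the median was 2092 bases, beside 1537 bases over 9596 protein-coding genes tested in all lines. No relation of length to response was tested.

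The genes whose levels followed each receptor most closely were sought over the 8 group means of log2(FPKM + 0.5), among 9650 protein-coding genes tested in all 4 lines. AXL was followed by TMEM167B (Pearson r = 0.993), MET by ATAD5 (0.988) and CEP290 (0.977) and EGFR by UTP14C (0.985) and TBK1 (0.982). IGF1R was followed by FHOD3 (0.994) and DNAJB9 (0.992), FGFR1 by FAM200B (0.993) and CRTAP (0.992) and EPHA2 by RANBP9 (0.981) and RTL8B (0.981). The 8 points are pairs of groups from 4 lines with separately normalised tables, so these values describe mainly differences between lines.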

How the data were processed

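Total RNA-seq of 24 libraries in 8 groups was used, grouped and numbered by their labels. The authors trimmed reads with cutadapt (1.14), aligned them to hg38 with HISAT2 (2.1.0), processed them with SAMtools (1.5) and counted them per gene with featureCounts (1.5.3; Ensembl annotation of the same build), before normalisation by TMM. The deposited values are FPKM, 1 table per line; the unit was worked out from the values. Their log2 fold changes, p-values and FDR are columns of the authors' own comparison and were not used. Whole reads were recovered for 100% of values (tolerance 0.01), which gave the depth (3105215 to 20082702 reads per library). Replicates differed beyond sampling noise in all 24 pairs within groups (chi-square per gene 1.54 to 15.1).

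Each line was tested on its own with limma (3.58.1, R 4.3.3; intensity trend, two-sided, no covariates) on log2(FPKM + 0.5), over genes averaging 0.5 FPKM or more, with p-values adjusted by Benjamini-Hochberg over every gene tested and a threshold of 0.05. Differences between lines were tested in a joint fit of the 24 libraries, by an F test of the 3 interaction contrasts and by 6 pairwise contrasts, each adjusted over all genes. Scripts were tested on simulated data. Within-library ratios were compared by exact permutation (scipy 1.17.1; Python 3.11.15, numpy 2.4.6, pandas 2.3.3, matplotlib 3.10.9). The alternatives were other pseudocounts, filters, scalings and models, a replicate block, and leaving out each library; where this left 2 libraries in a group, limma pooled the spread. The members and lists were chosen with earlier results of these data known. The genes named are the 10 receptors, IGF2BP1, the listed genes that passed in 1 direction in all 4 lines, for each list and line the 2 largest changes among called genes averaging 1 FPKM or more, and the 2 genes closest to each receptor in pattern; others are named as chosen later, and 1 gene that this rule names is not reported here. Reads of near-identical or overlapping genes could be split by the counting, whose strand setting is not given in the sources used here. Coordinates are from GENCODE release 44 (hg38) and count from 1.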

Additional observations from a re-analysis of the deposited data

Results flagged for a closer look

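For 3 of the 6 receptors tested in all lines, the response to the knockdown differed between the lines by the F test of the joint fit, as it did for 45.0% of all genes tested in it. AXL gave a limma adjusted p of 7.645e-11, with log2 fold changes of 0.91 in ES2, 0.56 in MV3, 0.48 in A549 and -0.38 in PANC1, and within each line every siI1 library lay on the same side of all siC libraries. MET gave 4.036e-09, with -0.90 in PANC1, -0.50 in MV3 and -0.17 in ES2, which passed the threshold, and 0.12 in A549, which did not. EGFR gave 0.0007421, with 0.29 in A549 and 0.24 in ES2, which passed, and 0.04 in MV3 and -0.07 in PANC1, which did not. PANC1 was harvested at 96 h and the other lines at 72 h, so the line and the time cannot be told apart there. Among the 3 lines harvested at 72 h, 3 of 3 pairs differed for MET, 2 of 3 for AXL and 1 of 3 for EGFR. Of all genes tested, 21.7% differed between ES2 and A549, 18.7% between MV3 and A549 and 9.78% between MV3 and ES2.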

How the results depend on the processing

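Each of the 31 tested log2 fold changes of a receptor in a line was recomputed under other pseudocounts, filters, scalings and models and with each library left out, 494 values in all. Of these, 432 kept their direction and their side of the threshold, 44 lost the threshold, 8 gained it and 10 changed sign. Of the 19 called changes, 10 kept their call under each alternative, namely AXL in all 4 lines, MET in MV3 and PANC1, FGFR1 in ES2, PDGFRB and EPHA2 in MV3 and ERBB2 in PANC1. All 10 changes of sign were of values that had not passed. INSR in A549 (0.01) went to -0.016 with same-sum scaling and -0.00036 with limma voom, and ranged from -0.12 to 0.084 with each library left out, turning negative without siC replicate 2 or siI1 replicate 1 or 3. INSR in MV3 (-0.04) ranged from -0.0996 to 0.0087, turning positive without siC or siI1 replicate 2, and IGF1R in ES2 (0.07) from -0.0046 to 0.15, turning negative without siI1 replicate 1. In PANC1 same-sum scaling turned IGF1R (0.11) to -0.61, with a limma adjusted p of 0.0233, and FGFR1 (0.24) to -0.43, beside a median of -0.68 over all genes tested. The cause of these changes was not tested. Few reads were counted for ERBB3 in every line, for PDGFRB in A549, PANC1 and siC of ES2, for ERBB2 in ES2 and for INSR in PANC1, and none for INSR in ES2.

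Counts of calls moved by over 1.5 times as follows. With same-sum scaling, 1 receptor was higher in A549 and 0 were lower in ES2, and 1 other receptor was lower in MV3 and 12 in PANC1. In the same setting 7 pathway genes were higher in MV3, and 43 were lower and 0 higher in PANC1, and all 6 receptors differed between the lines in place of 3. Over all genes, this scaling gave 8870 lower and 96 higher of 16238 in PANC1 and 2740 lower and 1941 higher of 16385 in MV3. It gave 757 higher of 18412 in A549 and 1419 lower of 16940 in ES2. Without a filter on low values, 1 other receptor was lower in MV3 and 0 in PANC1, 8 pathway genes were lower and 5 higher in PANC1, and 5 receptors differed between the lines, of 9 then tested. Of all genes, 2738 of 32314 were then lower in MV3, and 1631 were lower and 1334 higher of 29697 in PANC1. For the test between lines, the share of all genes with same-sum scaling or without the filter is not given here. Without the trend, 1 receptor and 5 pathway genes were higher in A549, 0 receptors were lower in ES2 and 3 other receptors were higher there. The counts over all genes were 633 higher of 18411 in A549, and 1876 lower and 1632 higher of 16920 in ES2. With limma voom on recovered reads, 2 other receptors were higher in A549, 4 were lower in ES2 and 5 in PANC1, and 1 receptor was higher in PANC1. Among all genes, voom gave 1837 higher of 18411 in A549, 2944 lower of 16920 in ES2, and 2760 lower and 2256 higher of 15846 in PANC1. In the joint fit of 24 libraries, 2 receptors were lower and 4 higher in A549 and 1 was higher in PANC1. Of the other receptors, 2 were higher in A549, 4 lower in ES2, 1 lower in MV3, and 5 lower and 1 higher in PANC1, and 5 pathway genes were higher in MV3. That fit called 3115 genes lower and 2527 higher of 18411 in A549 and 2811 lower of 16920 in ES2. It called 2370 lower and 1924 higher of 16380 in MV3 and 3335 lower and 2606 higher of 15846 in PANC1.

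Requiring also an absolute log2 fold change of 0.5 or more left 0 receptors higher in A549, 0 lower and 2 higher in ES2, 1 lower in MV3 and 1 lower in PANC1. Of the other receptors it left 2 lower in A549, 1 lower and 3 higher in ES2, 0 lower and 2 higher in MV3 and 1 lower in PANC1. Of the pathway genes it left 10 lower and 5 higher in ES2, 7 and 3 in PANC1, 6 and 2 in MV3 and 5 and 5 in A549. The share of all genes left by this rule is not given here, so these counts are not set against it.

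Without each library in turn, receptors lower numbered (A549, ES2, MV3, PANC1) 1, 0 to 1, 2 to 3 and 3 to 4, and receptors higher 2, 3 to 4, 2 to 3 and 0. Other receptors lower numbered 3, 2 to 3, 1 and 0 to 2, and higher 0 to 2, 3 to 4, 5 to 6 and 0. Pathway genes lower numbered 5 to 7, 14 to 16, 17 to 20 and 8 to 10, and higher 4 to 6, 7 to 8, 7 to 12 and 3 to 6. All genes lower numbered 752 to 993, 1492 to 1703, 2510 to 3043 and 1227 to 1955, and higher 502 to 726, 1139 to 1420, 1930 to 2553 and 1014 to 1880. Between 3 and 4 receptors differed between the lines.

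The replicate numbers did not pair the libraries: deviations from the group means correlated at -0.0562 to 0.0711 over the 12 pairs of the same number and at -0.0555 to 0.0667 over the 24 of different numbers. With a replicate block, 0 receptors were lower and 1 higher in A549 and 0 were lower and 2 higher in ES2. Of the other receptors 2 were lower and 0 higher in A549, 1 was lower in each of ES2 and MV3 and 0 in PANC1. In A549, 5 pathway genes were lower and 4 higher. The block left 622 lower and 379 higher of 18411 genes in A549 and 1443 and 1169 of 16920 in ES2. It left 2652 lower of 16380 in MV3 and 1606 lower of 15846 in PANC1.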
